A study of Caenorhabditis elegans with 8 samples.

Results

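The transcripts described here are those of 9 Caenorhabditis elegans genes for histone H3 lysine 9 (H3K9) methylation and related SET-domain proteins, namely met-2, set-25, set-32, lin-65, arle-14, set-6, set-11, set-13 and set-21. They were chosen by gene symbol, through the WormBase gene IDs of the deposited table, and all 9 were among its 17076 listed genes. Poly(A)-selected RNA came from whole hermaphrodites of the wild-type laboratory strain N2, grown at 20 °C on NGM plates with OP50 bacteria from synchronized first-stage larvae. Worms labelled adult day 1 (code 1P0) were grown for 60 h, and worms labelled adult day 5 (code 5P0) for 180 h. There were 4 libraries per age, and every batch, numbered 1 to 4 in the labels, gave 1 library of each age. The design text gives both ages the code 5P0, so ages were taken from the label of each sample. No mutant, transgene or drug entered either group, and whether the libraries of an age came from separate cultures is not given, so the p-values speak only for variation among these libraries, some of which may be technical. The title of the series links parental age to offspring survival by an epigenetic route, and the comparison asked which of these transcripts differed between the ages.

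Methylation of H3K9 marks silent, compacted chromatin. In worms MET-2, related to mammalian SETDB1, deposits mono- and dimethylation, and SET-25 adds trimethylation and sits with silent chromatin at the nuclear edge. LIN-65, an ATF7IP-like protein, and ARLE-14, related to ARL14EP, bind MET-2 and help it act on chromatin in the nucleus, and SET-32 works with nuclear small RNA pathways in the germline. SET-6 and SET-11 are predicted H3K9 methyltransferases. Methylation by MET-2 and SET-25 silences repeats and transposons. MET-2 is known to restrain inherited RNA interference, whereas SET-25 and SET-32 take part in establishing heritable silencing by nuclear small RNAs.

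Levels below are given as deposited, as reads over a size factor for the library, so that a value of about 1 stands for 1 read. They are not corrected for gene length. Means are given ± SD over 4 libraries, and differences (day 5 less day 1) are in log2(value + 1), each with a standard error (SE) taken from a limma fit over 16739 genes. A gene was called when its Benjamini-Hochberg adjusted p over all those genes was below 0.05. The libraries held 19345868 to 22305681 reads, so single reads matter only for set-13 and set-11.

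Of the 9 members, 7 were called higher at day 5 and none lower. The higher members were met-2, set-25, set-32, lin-65, arle-14, set-13 and set-21, with log2 differences from 1.17 to 5.46. Of these, set-13 met the filter for testing only through its day 5 values. set-6 and set-11 were not called. Across all genes tested 55.6% were called, 28.8% higher and 26.8% lower. All 7 differences were at least 1 on the log2 scale, a size that 24.1% of tested genes reached with a call in that direction. The 7 called members were also those whose age groups did not overlap, which held for 52.8% of all genes tested, and those that were higher at day 5 in all 4 batches, which held for 30.96% of genes. The median difference of the 9 was 1.78, against -0.06 for all genes tested. The count of 7 stayed at 7 in all 21 other fits that kept a whole-library scaling, among them edgeR's quasi-likelihood test, DESeq2, the fit with the replicate block and each fit without 1 library. It was 1 when libraries were recentred on meiotic germline markers, and 3 members (met-2, set-6 and set-11) were then called lower. Over all genes tested 6.34% were called higher and 67.2% lower on that scale. met-2, set-6 and set-32 took the opposite sign there, set-32 without a call, and lin-65 was near 0 (-0.041, SE 0.23).

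Germline transcripts rose in the same libraries. All 22 meiotic germline markers (synaptonemal complex, cohesin and crossover genes) were called higher, with a median difference of 1.71, and their summed level went from 7106 to 11308 in the day 1 libraries to 26793 to 34871 in the day 5 libraries. All 10 oocyte and eggshell markers and all 6 yolk genes were called higher. Their summed levels went from 1489 to 4591 up to 163372 to 243079 for the former, and from 111 to 4415 up to 589523 to 1297256 for the latter. The oocyte gene perm-2 and the yolk genes vit-3 and vit-5 were at 0 in at least 1 day 1 library. Of 10 moult and larval cuticle markers 9 were called lower, from summed levels of 28548 to 76293 down to 2866 to 8207. All 8 body muscle markers (129512 to 281702 down to 38126 to 76224), 3 of 5 intestine markers (41052 to 48648 down to 8696 to 11545) and 6 of 8 neuron markers (8989 to 12276 down to 7476 to 9835) were also lower, and 1 neuron marker was higher. Of 12 sperm markers 1 (spe-4) was called, lower, spe-38 was at 0 in a day 1 library, and their summed level ranged from 352 to 7024 at day 1 and from 559 to 3806 at day 5. In RNA of whole worms, more cells of a tissue and more RNA per cell cannot be told apart. The part of these shifts in the members' differences was not tested. The recentred values below take the same amount off the difference of every gene, so they do not measure that part.

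**Figure D1:**
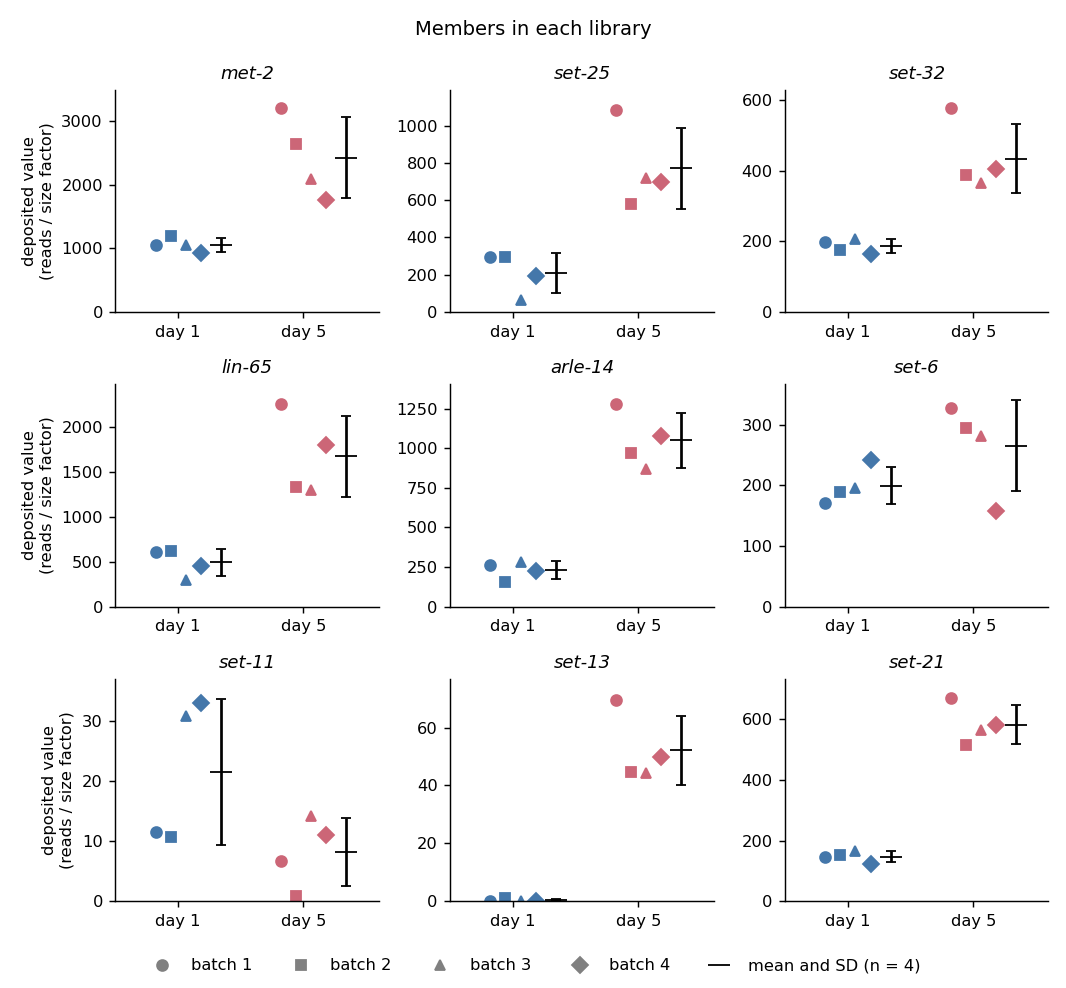
Deposited value (reads divided by the size factor of the library, linear axis from 0) of each of the 9 members in the 4 day 1 and 4 day 5 libraries, with the batch shown by the symbol and the mean and SD beside the points. For 7 members all day 5 points lie above all day 1 points, while those of set-6 and set-11 overlap. The day 5 library of batch 1 is the highest day 5 point for 8 of the 9.

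met-2 (WBGene00019883; WBcel235 chromosome III, 8375300 to 8380848, plus strand) had the highest read level of the group, at the 84.7th percentile of the mean over all tested genes. Its values were 1057, 1193, 1056 and 923 at day 1, in the order of batches 1 to 4 as in all lists that follow, and 3217, 2644, 2087 and 1763 at day 5. The lowest day 5 library was well above the highest day 1 library. The day 1 libraries lay close together and the day 5 libraries were spread more widely. The mean rose from 1057 ± 110 to 2428 ± 640, a difference of 1.17 (SE 0.21, limma adjusted p = 0.00109), and the 4 batches gave 1.605, 1.15, 0.98 and 0.93.

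The MET-2 partners rose as well. lin-65 (WBGene00022149; chromosome I, 1755329 to 1766400, plus strand) was at 603, 614, 297 and 453 at day 1 and at 2254, 1333, 1297 and 1793 at day 5. Its day 1 library of batch 3 was the lowest of all. The mean went from 492 ± 149 to 1669 ± 451, a difference of 1.78 (SE 0.28, adjusted p = 0.000499). arle-14 (WBGene00015145; chromosome III, 5692906 to 5693938, plus strand) was at 266, 155, 284 and 226 at day 1 and at 1281, 971, 869 and 1076 at day 5. Here the day 1 library of batch 2 was the lowest. The mean went from 233 ± 57.4 to 1049 ± 176, a difference of 2.19 (SE 0.24, adjusted p = 5.62e-05).

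set-25 (WBGene00012802; chromosome III, 13283824 to 13293090, minus strand), the trimethylating enzyme, was at 293, 293, 67.1 and 193 at day 1 and at 1085, 579, 719 and 695 at day 5. The groups did not overlap, but the day 1 library of batch 3, with 61 reads, stood well below the other 3. The mean went from 211 ± 107 to 769.6 ± 219, a difference of 2.03 (SE 0.45, adjusted p = 0.00355). The batches gave 1.89, 0.98, 3.40 and 1.84. The difference was called with each library left out, and it was 1.55 without the day 1 library of batch 3. Omitting day 1 batches 1 and 2 gave 2.71, and omitting day 1 batches 3 and 4 gave 1.35. The annotation of set-25 shares 85 exonic bases with other genes, the syntaxin gene unc-64 on the opposite strand and a piRNA gene, and the kit named in the labels is not stated to mark strand. unc-64 moved the other way, from 1047 ± 189 to 604 ± 61.4 (difference -0.78, SE 0.18, adjusted p = 0.00502). Whether reads of the shared bases entered the set-25 values was not tested.

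set-32 (WBGene00008062; chromosome I, 9519244 to 9521275, plus strand) was at 198, 176, 206 and 165 at day 1 and at 578, 388, 365 and 403 at day 5. The day 1 libraries were close together and all lay under the day 5 range. The mean went from 186 ± 19.1 to 434 ± 97.8, a difference of 1.196 (SE 0.22, adjusted p = 0.00121), close to that of met-2. set-21 (WBGene00021282; chromosome IV, 4390844 to 4393406, plus strand), another SET-domain gene, was at 147, 153, 166 and 122 at day 1 and at 669.5, 513, 563 and 581 at day 5. It was among the most even members within each age, with batch differences of 2.18, 1.74, 1.75 and 2.24. The mean went from 147 ± 18.4 to 582 ± 65.2, a difference of 1.98 (SE 0.20, adjusted p = 3.68e-05).

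set-13 (WBGene00019690; chromosome II, 2816976 to 2819175, plus strand) was nearly absent at day 1. It was listed at 0, 0.973, 0 and 0 there, from 1 read in all 4 libraries together, and at 69.8, 44.7, 44.3 and 49.8 at day 5, from 210 reads. Every day 5 library held at least 48 reads. The ratio of read rates was 206, with an exact 95% interval from 36.6 to 8175 that covers counting error only. All 17076 listed genes had a read in both ages, so the 1 day 1 read may be a condition of being listed. The interval takes no account of this. The mean day 1 value was 0.243, so the gene met the filter of a mean of 1 only through day 5. Its call is therefore no independent support for a rise. On the log2(value + 1) scale the difference was 5.46 (SE 0.44, adjusted p = 1.08e-05), and its size rests on the pseudocount: it was 8.15 with 0.1 and 3.43 with 5, and 7.10 with edgeR.

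set-6 and set-11, the predicted H3K9 methyltransferases, gave no call. set-6 (WBGene00008206; chromosome X, 11970077 to 11974679, minus strand) was at 171, 189.7, 196 and 242 at day 1 and at 327, 295, 282 and 157 at day 5. The groups overlapped, since the day 5 library of batch 4 was the lowest of all 8. Its difference was 0.37 (SE 0.28, adjusted p = 0.289), with batch values of 0.94, 0.64, 0.52 and -0.62, and without that library it was 0.60 (adjusted p = 0.0609). set-11 (WBGene00018023; chromosome II, 2690472 to 2692576, minus strand) was at 11.4, 10.7, 30.8 and 32.95 at day 1 and at 6.75, 0.932, 14.2 and 10.96 at day 5, from 1 to 34 reads a library. It was lower at day 5 in every batch, at -0.68, -2.60, -1.07 and -1.51. The difference of -1.46 (SE 0.71, adjusted p = 0.108) did not pass. Omitting day 1 batches 1 and 2 gave -2.19 (limma adjusted p = 0.0394), omitting day 1 batches 3 and 4 gave -0.74 (limma adjusted p = 0.469), and omitting day 5 batch 2 gave -0.83.

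Per kilobase of annotated exon, the order of the levels changed between the ages. At day 1 arle-14 (267 ± 65.9 per kb) and met-2 (256 ± 26.7) led and differed by less than their spread, followed by lin-65 (188 ± 57.0) and set-32 (113 ± 11.6). set-6 (84.6 ± 12.9), set-25 (75.5 ± 38.2) and set-21 (74.1 ± 9.30) could not be ordered beyond their spread, and set-11 (24.4 ± 13.7) and set-13 (0.193 ± 0.386) came last. At day 5 arle-14 (1204 ± 202 per kb) stood alone at the top. lin-65 (638 ± 172) and met-2 (588 ± 155) came next and did not differ beyond their spread, nor did set-21 (293 ± 32.9), set-25 (275 ± 78.1) and set-32 (262 ± 59.2). set-6 (112 ± 31.6), set-13 (41.3 ± 9.53) and set-11 (9.31 ± 6.49) were the lowest.

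**Figure D2:**
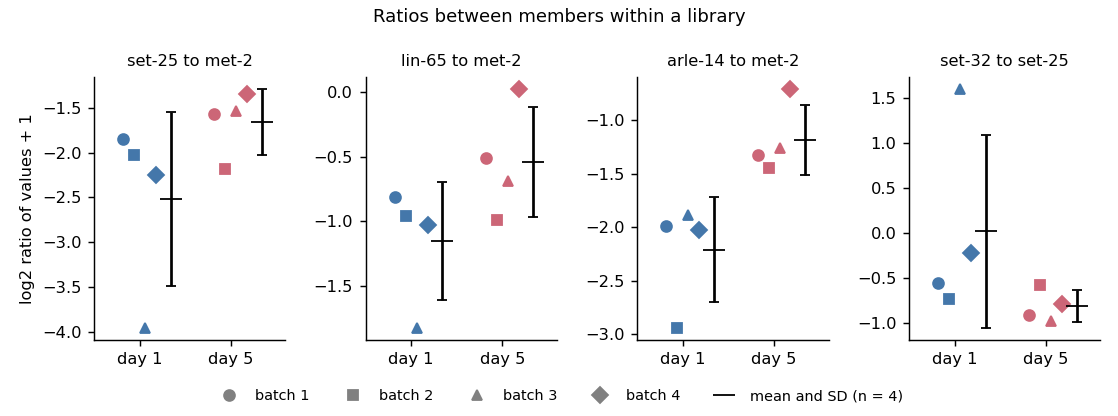
Log2 ratio of the values + 1 of 4 pairs of members within each library (n = 4 an age), with the batch shown by the symbol and the mean and SD beside the points. The arle-14 to met-2 ratio has non-overlapping ages, and the day 1 library of batch 3 stands apart in the 3 other panels.

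Ratios within a library hardly depend on how libraries are scaled, and 4 were tested between the ages by exact two-sided permutation tests, for which the smallest p possible is 0.0286. arle-14 to met-2 was at log2 -1.99, -2.94, -1.89 and -2.03 at day 1 and at -1.33, -1.44, -1.26 and -0.71 at day 5. Each day 5 value was above each day 1 value, with a difference of 1.02 (exact permutation p = 0.0286, adjusted p = 0.0857 over the 4 ratios). set-25 to met-2 differed by 0.86 (exact permutation p = 0.0857, adjusted p = 0.0857) and lin-65 to met-2 by 0.61 (the same p-values). Without the day 1 library of batch 3 these were 0.38 and 0.39. set-32 to set-25 differed by -0.83 (exact permutation p = 0.0571, adjusted p = 0.0857), and by -0.31 without that library. None of the 4 passed after adjustment. A ratio whose ages overlap cannot have an exact permutation p below 0.0571 here. With 4 ratios tested, 1 ratio that separates the ages fully while the others do not therefore cannot pass after adjustment. The lack of a call thus says little about whether the proportions of these transcripts differed.

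To set the members against the germline transcripts that rose in the same worms, each library was recentred on the median log2 level of the 22 meiotic markers (8.69, 8.55, 8.11 and 8.04 at day 1 and 10.46, 10.09, 9.97 and 10.16 at day 5) and the fit over all genes was repeated. This lowered every difference by 1.82, the mean rise of the library medians, whereas the median of the markers' own 22 differences was 1.71. lin-65, at 1.78, lay between these values, so its sign on the recentred scale turns on which is used. The recentred signs also depend on the list taken as reference. The median difference was 6.08 for the oocyte and eggshell markers, above that of every member, and 0.11 for the sperm markers. Recentring on those lists was not run. On the scale used 73.5% of all genes were called, 6.34% higher and 67.2% lower, against a median of -1.89 over all genes. Of the 9 members 1 was higher (set-13, 3.64, SE 0.50, limma adjusted p = 7.38e-05) and 3 were lower. These were met-2 (-0.65, SE 0.23, adjusted p = 0.0215), set-6 (-1.45, SE 0.36, adjusted p = 0.00350) and set-11 (-3.28, SE 0.80, adjusted p = 0.00330). set-32 was at -0.63 (SE 0.26, adjusted p = 0.0503) and just missed the threshold. lin-65 (-0.041, SE 0.23), set-21 (0.16, SE 0.26), set-25 (0.21, SE 0.38) and arle-14 (0.37, SE 0.30) were not called, so no departure from the meiotic median was detectable for these 4. The meiotic markers themselves spread on this scale, with 3 called higher and 4 lower, and coh-4 at -0.69, htp-1 at -0.69 and him-3 at -0.66 lay as low as met-2.

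**Figure D3:**
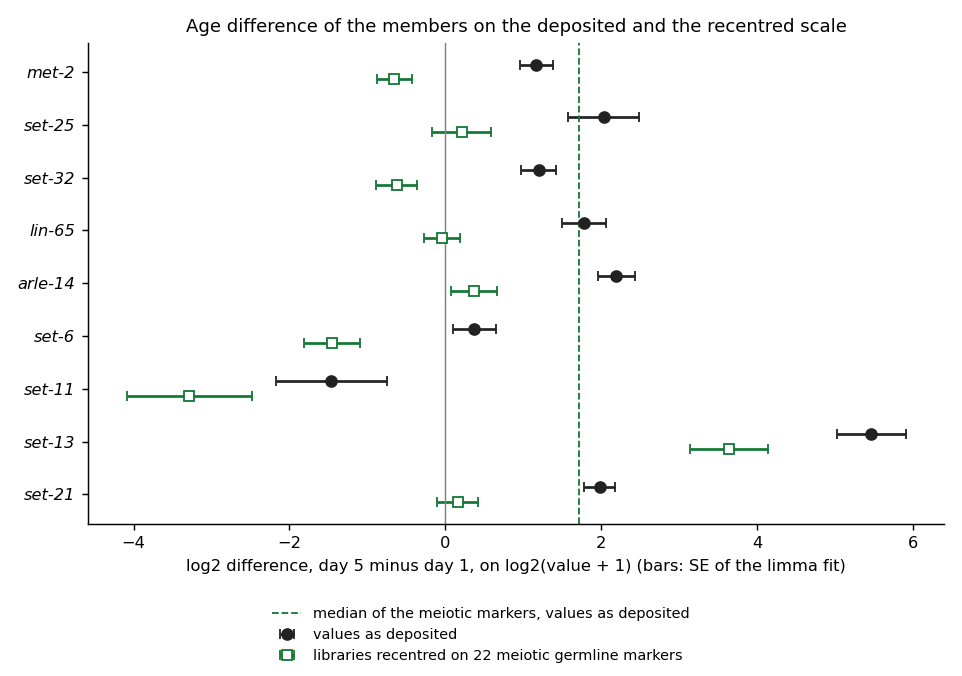
Log2 difference between day 5 and day 1 of each member with the SE of the limma fit, for values as deposited (filled circles) and for libraries recentred on the 22 meiotic germline markers (open squares), with the median of those markers as a dashed line at 1.71. The filled circles of lin-65, set-25, set-21 and arle-14, from 1.78 to 2.19, lie at or somewhat above that line and those of met-2, set-32, set-6 and set-11 below it, and the open squares of met-2, set-32, lin-65, set-6 and set-11 lie below 0.

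The spread among day 1 libraries was not shared by all members. Batches 3 and 4 at day 1 had the lower meiotic medians and far lower sperm and yolk levels than batches 1 and 2. The summed sperm markers were at 7024 and 3864 in batches 1 and 2 and at 352 and 383 in batches 3 and 4. set-25 and lin-65 were lower in batches 3 and 4, set-11 was higher there, and met-2, set-32 and set-21 varied little, with day 1 SDs of 0.15, 0.15 and 0.19 on the log2 scale against 0.99 for set-25 and 0.49 for lin-65. Among day 5 libraries that of batch 1 held the highest value of 8 members, all but set-11. It was also the highest in summed meiotic, oocyte and yolk markers, and 34.0% of all tested genes had their highest day 5 value there.

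The rest of the H3K9 pathway was read from lists chosen by function. Over all genes tested 28.8% were called higher and 26.8% lower, with a median difference of -0.06. All 22 meiotic germline markers were called higher too (median 1.71), so a rise was not particular to these lists. Of 9 genes for readers and anchors of methylated H3K9, 8 were called higher and 0 lower (median difference 1.44). The largest differences were in the chromodomain genes cec-8 (103 ± 51.5 to 987 ± 206, difference 3.42, SE 0.43, limma adjusted p = 0.000124) and cec-3 (660.4 ± 58.6 to 3170 ± 699.9, difference 2.24, SE 0.19, adjusted p = 1.40e-05). Of the HP1 genes, hpl-2 was called higher (749 ± 119 to 1958 ± 141, difference 1.40) and hpl-1 was at 151 ± 48.0 and 162 ± 30.2 (difference 0.14, limma adjusted p = 0.721), with no call. The difference between the 2 genes was not tested. Both, like the uncalled jmjd-1.1, nrde-2 and baf-1 below, were named after their values were seen. Of 3 H3K9 demethylase genes, jmjd-2, a KDM4-like enzyme (405 ± 54.9 to 1731 ± 631, difference 2.04), and jmjd-1.2 (1181 ± 315 to 3204 ± 282, difference 1.48) were called higher. The third, jmjd-1.1, was not called. It was listed at 111, 53.5, 0 and 0 at day 1 and at 7.88, 21.4, 21.3 and 22.9 at day 5, so its mean level was lower at day 5 while its mean log2 value was 1.03 higher (limma adjusted p = 0.593). Its direction turned with the day 1 libraries, at 4.17 with batches 1 and 2 omitted (limma adjusted p = 0.000421) and -2.11 with batches 3 and 4 omitted (limma adjusted p = 0.0107), and it was -1.19 with edgeR.

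Of 8 nuclear RNAi genes, which couple small RNAs to H3K9 methylation, 7 were called higher and 0 lower (median difference 1.41). The shares over all genes tested were 28.8% and 26.8%. hrde-1, the germline nuclear Argonaute, went from 2261 ± 1138 to 15137 ± 3206 (difference 2.87, SE 0.36, limma adjusted p = 0.000118), and nrde-3, the somatic one, from 334 ± 157 to 1635 ± 418 (2.42, SE 0.39, adjusted p = 0.000534). nrde-2 was not called, at 2159 ± 391 and 2343 ± 565 (0.10, adjusted p = 0.726). Of 4 genes of the nuclear lamina, where silent chromatin is anchored, lem-2 (1.84), emr-1 (1.76) and the lamin gene lmn-1 (0.80) were called higher. baf-1 was not (0.47, limma adjusted p = 0.190), but was called with day 1 batch 3 omitted (0.74, limma adjusted p = 0.00958) and with day 1 batches 3 and 4 omitted (0.90, limma adjusted p = 0.00333). In the recentred fit 1 of these 8 RNAi genes was higher and 3 lower, and of the 9 reader genes 1 was higher and 2 lower. Over all genes tested 6.34% were called higher and 67.2% lower in that fit. No demethylase gene was called there, with jmjd-1.2 at -0.34, and 2 lamina genes were lower, lmn-1 at -1.02 and baf-1 at -1.35, while emr-1 was at -0.063. hpl-2 was at -0.42 there, and hpl-1 (-1.68) and nrde-2 (-1.72) were among the lower genes. The small differences of hpl-1 and nrde-2 also changed sign with libraries scaled on the genes outside the top 1%, to -0.11 and -0.15.

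Among 29 other SET-domain genes listed, 19 were called higher and 3 lower (median difference 1.42), against 28.8% and 26.8% of all genes tested. The largest increases were in set-22 (157 ± 57.2 to 1249 ± 293, difference 3.02, SE 0.28), set-12 (18.4 ± 0.933 to 131 ± 13.2, difference 2.76, SE 0.28) and mes-4, a germline H3K36 methyltransferase (509 ± 213 to 3035 ± 743, difference 2.65, SE 0.32). The 3 lower genes were set-18 (1148 ± 264 to 163 ± 36.9, difference -2.80, SE 0.25) and set-30 (1305 ± 404 to 299.5 ± 71.6, difference -2.10, SE 0.27), which are related to the SMYD family, and set-27 (1952 ± 466 to 609.7 ± 72.3, difference -1.65, SE 0.21), and the other 7 gave no call. In the recentred fit 3 were higher and 9 lower, against 6.34% higher and 67.2% lower over all genes tested. The count of lower genes was 5 with day 1 batch 3 omitted, with day 1 batches 3 and 4 omitted, and with libraries scaled on the genes outside the top 1%.

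**Figure D4:**
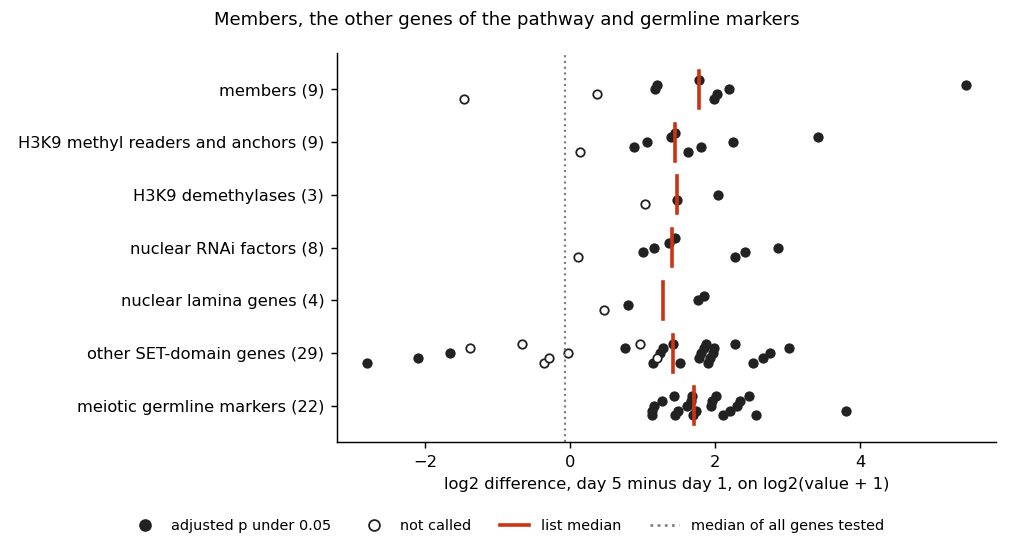
Log2 difference between day 5 and day 1 of each gene in the 9 members, the lists of the H3K9 pathway, the other SET-domain genes and the meiotic germline markers, with filled points for an adjusted p under 0.05, open points for genes not called, a bar at the list median and a dotted line at the median of all genes tested. The list medians lie between 1.28 and 1.78, against -0.06 for all genes, and set-13 is the member farthest to the right.

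By Pearson correlation over the 8 libraries on the log2(value + 1) scale, among 11634 other genes with a symbol and a mean value of at least 50, the genes most like each member were as follows. met-2 was closest to drsh-1, the Drosha gene of microRNA processing (r = 0.994), and vep-1 (0.992). set-25 was closest to W07E11.1 (0.997) and ipla-1 (0.997), and lin-65 to rpn-2, a proteasome gene (0.998), and par-4, an LKB1-like polarity kinase (0.997). arle-14 was closest to F55G1.7 (0.998) and F32H2.10 (0.997), set-32 to clec-143 (0.995) and ints-13 (0.994), and set-21 to C37C3.9 (0.999) and neg-1 (0.999). set-13 was closest to R04D3.4 (0.999) and lsy-27 (0.999), which had mean day 1 values of 0.486 and 0.243. Libraries of both ages enter each r, and no correlation within an age was computed. Between 1628 and 2850 genes had r above 0.9 with each of these 7 members. For set-6, twk-1 (0.937) and gldi-4 (0.932) were closest and 4 genes passed 0.9, and for set-11, nhr-131 (0.989) and nhr-90 (0.969) were closest and 12 passed.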

How the data were processed

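Poly(A) libraries of 8 whole-worm RNA samples (4 an age) were analysed from the table of signal values deposited by the authors. HISAT2, HTSeq and build WBcel235 are named per the submitters' processing notes, which give no versions. The sources used here state no annotation, strand setting or rule for multiply mapped reads. The table is named FPKM, but 100% of its values were whole multiples of 1 step per library within 0.001 reads, so they are read counts divided by a size factor. The test planned for FPKM was kept. The 16739 genes whose mean reached 1 were tested with limma 3.58.1 (R 4.3.3) on log2(value + 1), group as the only term, with a mean-variance trend. edgeR 4.0.16 and DESeq2 1.42.0 on the recovered reads called 9303 and 9705 genes, against 9307 for limma. Total reads per library ranged from 19345868 to 22305681, which sets the counting precision of low genes. Intervals cover counting error only. All 9 members and 16887 of 17076 listed IDs matched the table of gene names. Coordinates are 1-based, from annotation release 115 of WBcel235, and levels per kb use the union of exons.

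Members, lists and alternatives were chosen with earlier results of these data known, so no pattern is independent support. Members are all named. From each list of 5 or fewer calls in a direction all were named, otherwise the 2 largest, and of the other SET-domain genes the 3 largest in each direction. Of 31 other SET-domain genes 29 are listed, and set-8 and set-33 were not analysed here. The batch label, shared by 1 library of each age, pairs the libraries. Deviations of same-batch libraries from their group means had correlations of -0.22, 0.24, -0.09 and -0.02 (mean -0.03), against 0.01 for other pairs. The model without the block is the main one. The alternatives were pseudocounts of 0.1 and 5, no filter or a minimum mean of 5, TMM, median-of-ratios and top-1%-free scaling, recentring on 22 meiotic markers, no variance trend, the replicate block, and libraries left out. The same fit was also run, after the fits above, on data simulated from these reads, and the outcome is not given here. Permutation tests used scipy 1.17.1 and plots matplotlib 3.10.9 in Python 3.11.15.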

Additional observations from a re-analysis of the deposited data

Results flagged for a closer look

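The value of set-13 in the day 1 library of batch 2, 0.973, stood apart from the other 3 day 1 libraries, which were listed at 0. It rests on 1 read. In 18 groups of 4 libraries tested (9 members at 2 ages) this was the 1 library whose gap to the others exceeded Dixon's critical value at the 95% level. With the other 3 libraries at 0, any single read passes that value, so the flag carries no weight. The rate of about 1 group in 20 that the level implies does not apply to such counts.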

How the results depend on the processing

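With recentring on the meiotic germline markers, 1062 genes were called higher and 11248 lower, against 4820 and 4487 as deposited. Members called went from 7 higher and 0 lower to 1 and 3, and genes of the pathway lists from 39 and 3 to 5 and 16. The sign turned for met-2 (-0.65), set-32 (-0.63), lin-65 (-0.041), set-6 (-1.45), jmjd-1.2 (-0.34), emr-1 (-0.063), lmn-1 (-1.02), hpl-2 (-0.42), hpl-1 (-1.68), jmjd-1.1 (-0.79), nrde-2 (-1.72) and baf-1 (-1.35). This follows from the construction, as the markers' own rise is subtracted. Outside recentring no member changed sign, and a single member call changed, that of set-11. Of the pathway genes named, 3 that were not called changed sign. hpl-1 was at -0.11 with scaling without the top 1%, -0.015 to 0.29 with each library left out and -0.26 with day 1 batches 1 and 2 omitted. nrde-2 was at -0.15 with that scaling, -0.015 to 0.25 with each library left out and -0.12 with day 1 batches 3 and 4 omitted. jmjd-1.1 was at -0.017 to 2.25 with each library left out, -2.11 with day 1 batches 3 and 4 omitted, -1.19 with edgeR and -1.16 with DESeq2. Omitting day 1 batches 1 and 2, 1 member (set-11) was called lower. Pathway genes called lower were 5 with scaling without the top 1% and 6 with day 1 batches 3 and 4 omitted, and 3 to 5 with each library left out; the cause was not tested. Scaling without the top 1% moved the median of all genes from -0.06 to -0.29 and met-2 to 0.92. With each library left out the genes called ranged from 8251 to 9448 (4407 to 5024 higher, 3813 to 4488 lower), members from 7 to 7 higher and 0 to 0 lower, and pathway genes from 38 to 41 higher. The ratios ranged from 0.38 to 1.09 (set-25 to met-2), 0.39 to 0.76 (lin-65 to met-2), 0.78 to 1.13 (arle-14 to met-2) and -1.08 to -0.31 (set-32 to set-25). The fit with the replicate block called 8810 genes and changed no member call (met-2 adjusted p = 0.00249, set-11 adjusted p = 0.0513), and a sign-flip test over batches gave each ratio an adjusted p = 0.250 (exact), a design of 4 pairs that cannot reach the threshold. Depth limits set-13 at day 1 (1 read) and set-11 (1 to 34 reads).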
